A study of Caenorhabditis elegans with 4 samples.

Results

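The regions described here are the LIN-13 peaks of Caenorhabditis elegans chromosome IV, mapped by chromatin immunoprecipitation and sequencing (ChIP-seq). Members were all peaks of the combined peak list that lie on IV in genome build WormBase WS180, with no choice by strength, and they number 484 of the 2769 peaks in that list. The worms were L4 hermaphrodites of strain OP49 at 20 °C, which carries the unc119(ed3) mutation and wgIs49, a bombarded transgene of lin-13 with TY1, EGFP and FLAG tags together with unc119. LIN-13 ChIP with antibodies against GFP (2 samples) and input DNA (2 samples) all came from this strain, so no untagged or lin-13 mutant worms serve as a control. The tagged protein is made from an added transgene, and whole worms were used, so tissues cannot be told apart. The groups were taken from the titles, which the description fields do not match: for the ChIP samples these read input DNA only, and for the input samples they name ChIP DNA and the antibody as well as input DNA. Nothing in the labels tells if the replicates were separate cultures.

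LIN-13, a zinc-finger protein of the nucleus, is encoded by a class B synthetic Multivulva gene. Genes of this class, among them the Rb homologue lin-35, help to keep vulval fates from being taken up by the wrong cells. LIN-13 is known to work with the heterochromatin protein HPL-2. Worm autosomes have no single centromere; their gene-rich centres are flanked by arms that hold more repeats and more heterochromatin marks. Chromosome IV is also known for carrying most of the loci of 21U-RNAs, the piRNAs of C. elegans, in broad clusters. Genes, 21U-RNA loci and sequences under the peaks were not analysed here, because no annotation or genome of build WS180 was used. Both transgene-borne genes, lin-13 and unc-119, lie on chromosome III in RefSeq's annotation of assembly WBcel235, so neither locus is on IV.

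Per the file headers, peaks were called with PeakSeq, which compares ChIP reads with input reads. The q-value of each peak is the authors' own. It is given here as −log10 q, so that a larger value is a stronger peak, and is used within a list or set side by side between lists whose read depths are unknown. With no reads or counts at hand, no enrichment over input can be stated. Shares carry 95% Wilson intervals, and differences between shares carry 95% Newcombe intervals. These treat peaks as independent, which clustered peaks are not, and cover counting error only. Where an upper limit is given for a count of 0, it is instead that of 3 counts of the total. No p-values are given, and an interval that includes 0 does not show that shares are alike.

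Chromosome IV carried peaks along its whole length, at a density close to that of the other autosomes pooled. It held 27.7 peaks per Mb over the 17.5 Mb spanned, against 29.4 per Mb on I, II, III and V, a ratio of 0.942 (0.851 to 1.04). The other autosomes lay far apart, at 20.4 peaks per Mb on I, 30.2 on II, 50.2 on III and 21.6 on V. IV was thus denser than I and V and sparser than II and III. Without III the ratio was 1.16 (1.04 to 1.29), and without I it was 0.862 (0.777 to 0.955), so the choice of comparison chromosomes decides the direction. In the replicate lists IV had 13.05 and 7.67 peaks per Mb, against 13.8 and 7.48 on the other autosomes in replicates 1 and 2. Its peaks covered 296 kb, or 1.69% of the length, against 1.82% on the other autosomes.

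Peaks were spread along IV with fuller and emptier stretches. In 17 complete 1 Mb bins the combined list had 27.7 ± 6.87 peaks per bin (SD over bins), from 18 to 46, against 29.2 ± 16.1 in 63 bins of the other autosomes, from 10 to 107. Within single chromosomes it was 20.5 ± 5.57 on I, 30.1 ± 10.8 on II, 50.7 ± 19.04 on III and 21.25 ± 7.86 on V. Taken against its mean, the SD of IV was close to that of I and smaller than those of II, III and V. The bin from 2 to 3 Mb was the fullest, with 46 combined peaks, 25 in replicate 1 and 19 in replicate 2. It was also the fullest bin of IV in each replicate list. It was followed by the bin from 1 to 2 Mb with 35 combined peaks, and by those from 4 to 5 and from 11 to 12 Mb with 34 each. The emptiest complete bins were 16 to 17 Mb with 18 peaks, 12 to 13 Mb with 20 and 6 to 7 Mb with 23. The bin from 12 to 13 Mb was also the lowest complete bin in both replicates, with 6 peaks in replicate 1 and 2 in replicate 2.

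Neighbouring peaks on IV were separated by a median gap of 14.5 kb (quartiles 2.84 to 49.4 kb). Of 483 gaps, 57 were under 1 kb, and 52 were over 100 kb. The widest stretch with no combined peak ran from 13395598 to 13777505, or 382 kb, in the inner part of the right arm. The next were 12786263 to 13035147 (249 kb) and 16181466 to 16398088 (217 kb). No replicate peak lay wholly inside the widest stretch, though 1 replicate 1 peak reached over its left edge. The stretch of 249 kb held a replicate 1 peak that the combined list lacked, at 12831696 to 12831964 with a −log10 q of 4.25, and that of 217 kb held no replicate peak. The narrowest gap was 208 bp.

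The outermost 25% of the length on either side was taken as an arm, and the remaining 50% as the centre. Arms and centre of IV held about equal numbers of peaks, but the left arm held more peaks than the right. The arms held 239 of 484 peaks, or 49.4% (44.9% to 53.8%), against 49.5% on the other autosomes (difference −0.0963 percentage points, −5.06 to 4.88). Density was highest in the left arm and lowest in the right, with 31.6 peaks per Mb in the left arm (138 peaks), 28.0 in the centre (245) and 23.1 in the right arm (101). The same order was seen in replicate 1, with 16.5, 12.02 and 11.7 peaks per Mb, and in replicate 2, with 9.61, 7.67 and 5.72. The right arm thus held 42.3% (36.2% to 48.6%) of the arm peaks of IV, against 50.6% on the other autosomes (difference −8.32 points, −15.2 to −1.23). In the replicates the shares on IV were 41.5% (33.1% to 50.3%) and 37.3% (26.7% to 49.3%), against 50.7% and 55.2% on the other autosomes. The difference was −9.22 points (−18.7 to 0.768) in replicate 1, an interval that includes 0, and −17.9 points (−30.1 to −4.34) in replicate 2.

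Chromosome III was weighted like IV, with 40.8% (35.9% to 45.9%) of its arm peaks on the right. II and V were weighted the other way, with 56.1% (49.9% to 62.2%) and 63.4% (56.3% to 70.03%), and I stood at 49.7% (41.7% to 57.6%). The median width of left arm peaks of IV was 396.5 bp, against 465 bp for the right arm and 494 bp for the centre. Their median −log10 q was 5.89, against 6.31 in the right arm and 5.68 in the centre. Replicate support, described next, was 25.4% (18.8% to 33.2%) in the left arm, 22.8% (15.7% to 31.9%) in the right arm and 19.6% (15.1% to 25.02%) in the centre, with intervals that overlap.

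**Figure D1:**
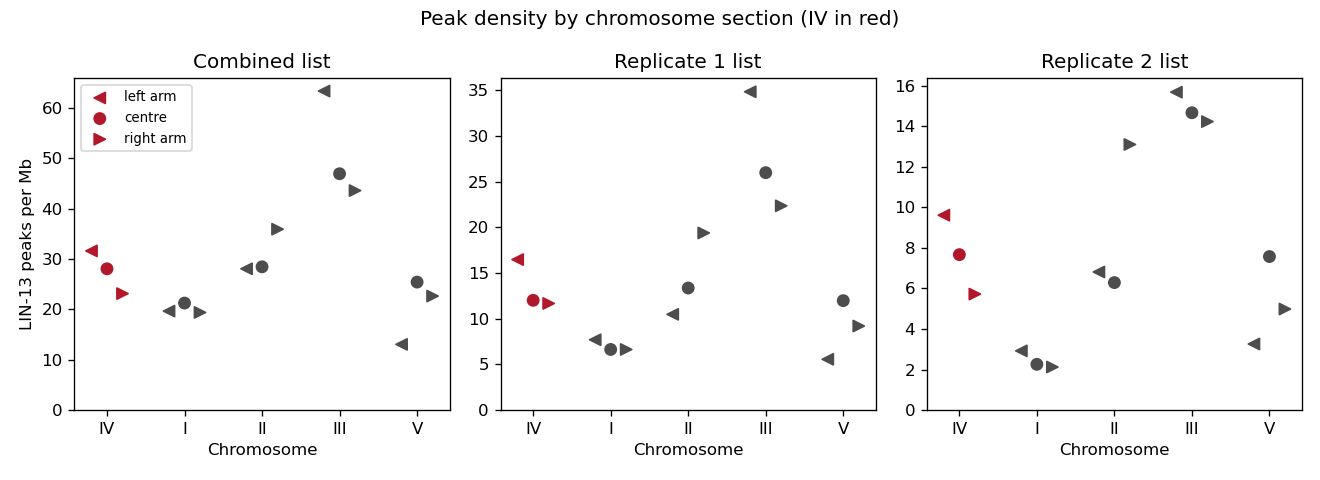
Each point is the number of LIN-13 peaks per Mb (vertical axis, from 0) in the left arm, centre or right arm of an autosome, for the combined, replicate 1 and replicate 2 lists; IV is in red. On IV the left arm is highest and the right arm lowest in all 3 lists, from 31.6 to 23.1 peaks per Mb in the combined list.

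More than 50% of the peaks on IV were found in neither replicate list. A combined peak was counted as found where it overlapped a replicate peak by at least 1 bp. On IV, 216 of 484 peaks, or 44.6% (40.3% to 49.1%), were found in replicate 1, against a background of 44.7% over all 2769 peaks. Replicate 2 held 127, or 26.2% (22.5% to 30.3%), against 25.2% over all peaks. Both held 106, or 21.9% (18.4% to 25.8%), against 21.8% over all peaks, and neither held 247, or 51.0% (46.6% to 55.5%), against 51.8%. These shares all lie near the background. The share in both replicates exceeded that of the other autosomes by 0.749 points (−3.19 to 5.03). Without chromosome I, on which 11.1% of peaks were in both replicates, it fell short by −1.18 points (−5.24 to 3.20).

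Whether an IV peak was found again went with its strength, as on the other autosomes. When the whole combined list was ranked by q-value and divided into 10 groups, 47 peaks of IV fell in the strongest group, and 46 of them, or 97.9% (88.9% to 99.6%), were in both replicates. The exception, at 9439978 to 9442681, was 2704 bp wide with a −log10 q of 17.0; it had a replicate 1 peak of 7.61 and no replicate 2 peak. In the second group 35 of 47 were in both, or 74.5% (60.5% to 84.7%), and in the third 13 of 43, or 30.2% (18.6% to 45.1%). On the other autosomes the shares in both were 91.0% in the strongest group, 62.8% in the second and 32.5% in the third. Of the 195 IV peaks in the 4 weakest groups, 0 were in both replicates, which allows a share of up to 1.54%. The replicate lists end at stronger values, however. Their smallest −log10 q was 3.99 for replicate 2 and 3.83 for replicate 1, while combined peaks went down to 3.62. IV peaks of the weakest group, from 3.63 to 3.88, all lay below the replicate 2 limit. How far these limits alone set the 0 was not tested, so no lack of binding can be read from it. At the shares that the other autosomes had in each of the 10 groups, 97.9 of the 484 IV peaks would be in both, against the 106 found. With I left out of that calculation the number was 108.

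The weakest of the 10 groups held a larger share of peaks on IV than on the other autosomes, but the groups next to it did not. The median −log10 q of IV peaks was 5.79, against 6.10 on the other autosomes. In the weakest group were 65 of 484 IV peaks, or 13.4%, against 8.64% of 1910 on the other autosomes (difference 4.79 points, 1.73 to 8.32). Without III the difference was 3.91 points (0.639 to 7.57). The next weakest group held 8.47% of IV peaks and 10.6% of those on the other autosomes, and the group before it 9.50% and 10.1%. The strongest group held 9.71% of IV peaks and 9.90% of those elsewhere (difference −0.185 points, −2.91 to 3.04).

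**Figure D2:**
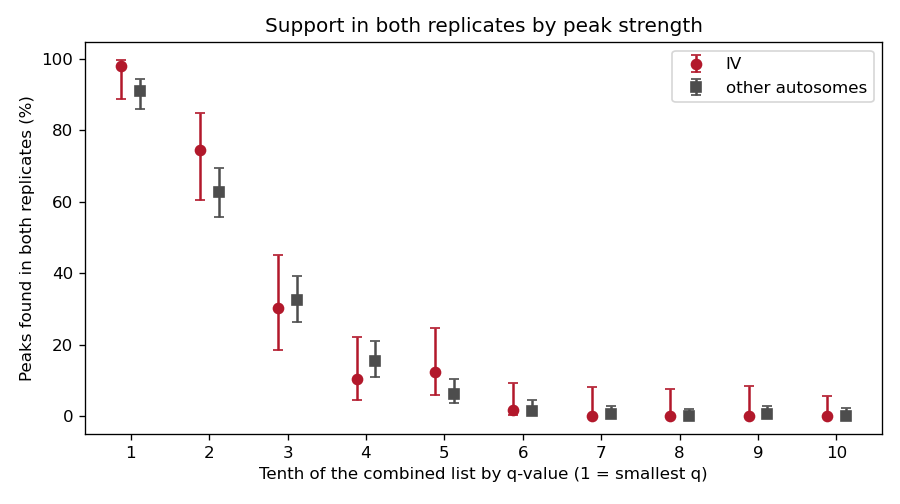
The share of combined peaks found in both replicates (vertical axis, percent) is plotted for each of the 10 groups of the combined list by q-value, with 95% Wilson intervals, for IV (red circles) and the other autosomes (grey squares). On IV the share was 97.9% in the strongest group, 74.5% in the second and 30.2% in the third, and the intervals of IV and the other autosomes overlap in every group.

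Most replicate 2 peaks of IV overlapped a replicate 1 peak, and the overlapping peaks were ranked only in part alike. Of the replicate 2 peaks on IV, 111 of 134, or 82.8% (75.6% to 88.3%), overlapped a replicate 1 peak, against 86.2% (82.9% to 89.0%) on the other autosomes. Of the replicate 1 peaks on IV, 109 of 228, or 47.8% (41.4% to 54.3%), overlapped a replicate 2 peak, against 46.5% (43.3% to 49.8%). Taking for each replicate 2 peak its strongest overlapping replicate 1 peak gave 111 pairs. Their centres lay a median of 74.5 bp apart, and 67 pairs, or 60.4%, lay within 100 bp, while 5 were over 500 bp apart. On the other autosomes the median distance was 49 bp over 419 pairs. There 70.2% lay within 100 bp and 25 pairs were over 500 bp apart. Pairs were chosen by overlap, so their centres had to lie near each other.

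Across the 111 pairs the Spearman correlation of −log10 q was 0.553 and the Pearson correlation 0.840, as a description of peaks that share 2 libraries. With the 2 pairs left out that lay farthest from the median of replicate 1 these were 0.529 and 0.721, and the Spearman value was 0.650 for the 91 pairs with centres within 200 bp. The other autosomes had a Spearman correlation of 0.632. In 77 of the 111 pairs the −log10 q was larger in replicate 1, with medians of 8.01 and 6.26 for replicates 1 and 2. On the other autosomes it was larger in replicate 1 in 327 of 419 pairs, with medians of 8.03 and 5.99. Taking the strongest replicate 1 peak for each pair leans these counts toward replicate 1. Depth is also unknown, so no difference in binding can be read from these values.

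**Figure D3:**
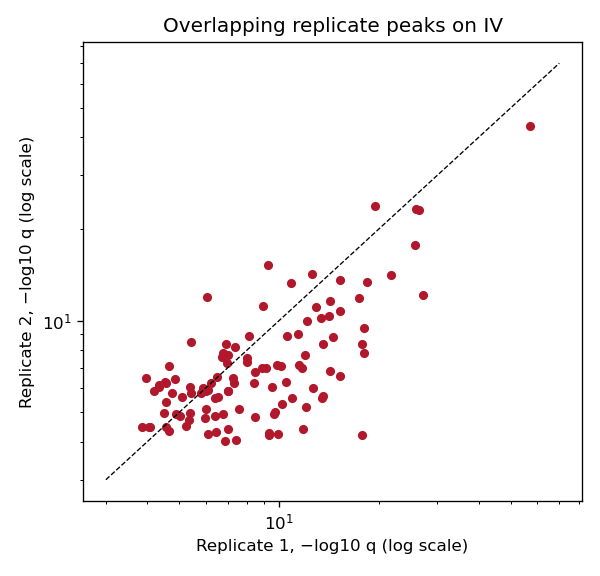
Each of the 111 points is a pair of overlapping peaks on IV, with −log10 q in replicate 1 on the horizontal and in replicate 2 on the vertical axis, both on log scales; the dashed line marks equal values. The single point at the upper right is the region near the right end of IV, with 57.1 and 43.7, and 77 of the pairs lie below the line.

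The 10 strongest regions of IV were mostly broad, lay in both arms and the centre, and were all found in both replicates. Of the 10 with the smallest q-values, 4 lay in the left arm, 3 in the centre and 3 in the right arm, and 8 were 1000 bp or wider. The first, at 17277814 to 17281961 near the right end, was 4148 bp wide and ranked 5 in the series; its combined −log10 q was 103. It was a single peak in both replicates, at 17277814 to 17281701 with 57.1 in replicate 1 and at 17278197 to 17281613 with 43.7 in replicate 2. It was also the widest peak of IV and had no neighbour within 5 kb.

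The following regions of IV were much weaker. In the left arm, the region at 2709500 to 2711665 had a −log10 q of 53.4, with 25.8 in replicate 1 and 23.2 in replicate 2. In the centre, 8431529 to 8433451 had 49.1, with 26.4 and 23.1 in replicates 1 and 2. In the right arm, 14032603 to 14034691 had 46.1, with 19.5 and 23.7. The last was the only one of the 10 that was stronger in replicate 2.

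A few strong regions were single in the combined list but split in the replicates. The region at 4747513 to 4750273, with a −log10 q of 52.2, held 2 peaks in each replicate, and its right-hand peak was the stronger, with 21.7 against 11.7 in replicate 1 and 14.2 against 6.98 in replicate 2. The region at 2388716 to 2390643, with 43.9, held 2 peaks in each, and its left-hand peak was the stronger, with 17.4 against 10.2 and 11.9 against 5.34. The region at 10933668 to 10936481, with 37.98, was split as well. From left to right its peaks had 15.3 and 11.8 in replicate 1 and 6.58 and 13.6 in replicate 2. The right-hand replicate 2 peak, at 10935093 to 10936403, overlapped both replicate 1 peaks, so the parts cannot be matched. The order of the parts was thus kept between replicates in the first and second of these regions, and cannot be compared in the last.

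Narrow regions were few among the 10 strongest. The peak at 15059126 to 15059808 was 683 bp wide and reached 45.5, with 27.1 in replicate 1 and 12.2 in replicate 2. The peak at 3050149 to 3051067 was 919 bp wide and reached 37.4, with 18.4 and 13.4. The remaining region of the 10, at 654283 to 655418, had 42.4, with 25.7 and 17.7. Of the 50 strongest IV peaks, 49 were in both replicates and 27 were 1000 bp or wider. Of the 100 strongest, 84 were in both and 42 were that wide.

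Broad regions, of 1000 bp or more, made up 63 of the 484 IV peaks, or 13.02% (10.3% to 16.3%), against a background of 12.5% over the whole list. Other autosomes had 12.3%, a difference of 0.713 points (−2.41 to 4.29). The broad regions of IV covered 99.1 kb, or 33.5% of all bases under its peaks. Of these, 12 lay in the left arm, 36 in the centre and 15 in the right arm, or 8.70%, 14.7% and 14.9% of the peaks there. The left arm share was lower than that of the right arm by −6.16 points (−15.1 to 2.00), an interval that includes 0. On IV, 12 regions reached 2000 bp, or 2.48% of its peaks, against 2.83% on the other autosomes and 2.74% over the whole list. Of the 12, 8 lay in the centre. The widest of IV, at 4148 bp, compares with 12291 bp for the widest of the other autosomes.

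Broad regions were stronger and better supported than narrower peaks on IV, as on the other autosomes. Their median −log10 q was 12.7, against 5.46 for the narrower peaks, and the Spearman correlation between width and −log10 q over the 484 peaks was 0.572. On the other autosomes the medians were 14.3 and 5.69, and the correlation was 0.560. Both measures come from the same reads. Replicate 1 held 56 of the 63 broad regions, or 88.9% (78.8% to 94.5%), replicate 2 held 40 and both held 37, or 58.7% (46.4% to 70.04%). Of the 421 narrower peaks, 69 were in both, or 16.4% (13.2% to 20.2%). On the other autosomes replicate 1 held 76.6% of the broad regions, replicate 2 held 59.6% and both held 54.9%. Of the narrower peaks there, 16.4% were in both. The replicate 1 share of broad regions was higher on IV by 12.3 points (1.05 to 20.4). Without chromosome I it was higher by 8.78 points (−2.56 to 17.3), an interval that includes 0. In 10 of the 63 broad regions at least 1 replicate had more than 1 peak, and 0 of the 421 narrower peaks were split in that way. On the other autosomes 33 of 235 broad regions and 1 of 1675 narrower peaks were split. A narrower peak has less room to overlap more than 1 replicate peak.

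Broad regions found in neither replicate were fewer on IV than on the other autosomes, at 4 of 63, or 6.35%, against 44 of 235, or 18.7% (difference −12.4 points, −19.1 to −2.44). Without chromosome I the other autosomes had 25 of 181, or 13.8%, and the difference was −7.46 points (−14.4 to 2.38), an interval that includes 0. This comparison was chosen after its values were seen. The 4 regions were 16169547 to 16171026 with a −log10 q of 10.9, 6555012 to 6556173 with 8.21, 3232687 to 3233963 with 7.54 and 8265531 to 8266689 with 6.57.

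Further wide regions of the centre were of moderate strength. The second widest, 3076 bp at 8260734 to 8263809, had a −log10 q of 17.3; it was 1 peak of 9.33 in replicate 1 and 2 peaks of 4.195 and 4.27 in replicate 2. The region at 11820180 to 11822953, of 2774 bp, reached 25.4 and was split into 2 peaks in each replicate, with 8.48 and 7.26 in replicate 1 and 4.83 and 6.46 in replicate 2. At the other extreme, 15 IV peaks were under 200 bp wide, down to 73 bp, with −log10 q from 3.63 to 5.82. Replicate 1 held 4 of these 15, or 26.7%, against 4 of 82, or 4.88%, on the other autosomes (difference 21.8 points, 4.53 to 47.2), a comparison chosen after its values were seen. Replicate 2 held 0 of the 15, which allows a share of up to 20%. Its list ends at a −log10 q of 3.99, within the range of these peaks, so this 0 shows no lack of binding.

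**Figure D4:**
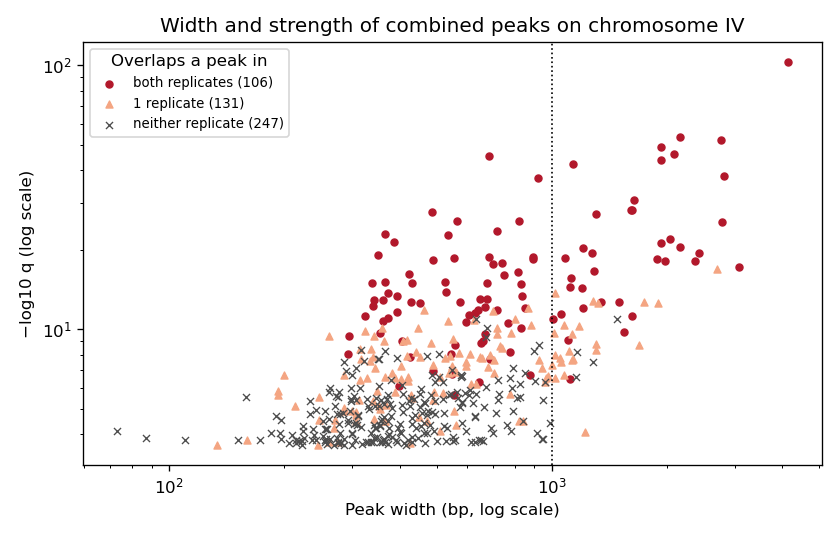
Each point is a combined peak on IV, by width (horizontal axis, bp) and −log10 q (vertical axis), both on log scales, with the symbol showing whether it overlaps a peak in both replicates (106), in 1 replicate (131) or in neither (247). Peaks in both replicates fill the upper part, peaks in neither reach at most 10.9, and the dotted line marks 1000 bp.

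Peaks of IV mostly had close neighbours, but their clusters stayed small. A cluster was a run of at least 2 peaks with gaps of less than 5 kb. On IV, 281 of 484 peaks lay in 112 clusters, or 58.1% (53.6% to 62.4%), against a background of 55.5% over the whole list and 58.5% on the other autosomes (difference −0.424 points, −5.38 to 4.43). The share depends on density, and among the other autosomes it ran from 41.7% on I to 69.5% on III. Without III the others had 52.3%, and IV was higher by 5.80 points (0.554 to 10.95). With gaps under 2 kb IV had 36.4% against 41.7% (difference −5.31 points, −10.0 to −0.416).

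By size, 76 clusters of IV held 2 peaks, 20 held 3, 11 held 4 and 5 held 5. Clusters of 2 took up 31.4% of IV peaks, against 25.1% on the other autosomes (difference 6.27 points, 1.83 to 10.9). No cluster of IV held 6 or more. On the other autosomes 15 clusters did, with 112 of 1910 peaks, or 5.86% (difference −5.86 points, −7.01 to −4.62). No upper limit is given for the 0 on IV, because the peaks of such a cluster would be counted together. Without III, which held 71 of the 112 peaks, the others had 3.36% and the difference was −3.36 points (−4.53 to −2.19). Of the 15 clusters, 9 were on III, 4 on II, 2 on V and 0 on I. Peaks of 1 cluster were counted singly here although they come together, so these intervals are too narrow. Clusters of IV spanned a median of 3891 bp, from 1087 to 13438 bp; 34 lay in the left arm, 57 in the centre and 21 in the right arm.

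**Figure D5:**
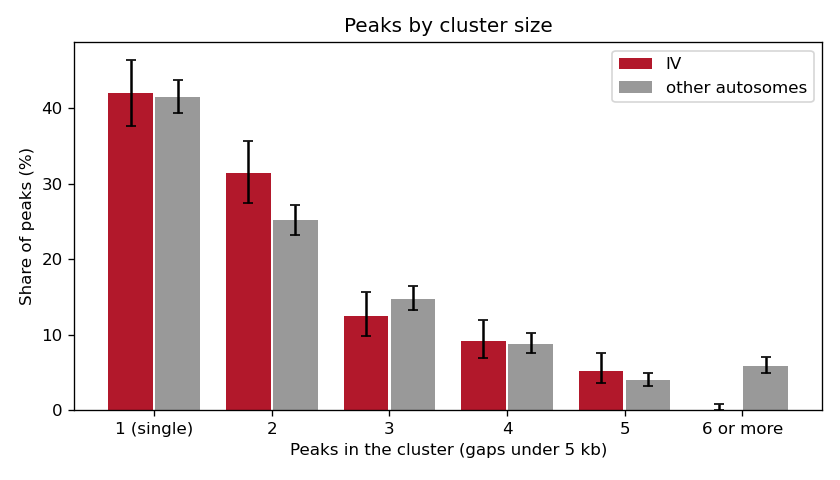
Bars give the share of peaks (vertical axis, percent, from 0) that are single or lie in clusters of 2, 3, 4, 5 or at least 6 peaks, for IV (red) and the other autosomes (grey), with 95% Wilson intervals. IV has 31.4% of its peaks in clusters of 2 against 25.1%, and 0 in clusters of 6 or more.

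Clustered peaks of IV were wider than single ones, as on the other autosomes. Their median width was 519 bp against 404 bp, and 49 of 281, or 17.4%, were broad, against 14 of 203, or 6.90% (difference 10.5 points, 4.64 to 16.1). On the other autosomes the medians were 514 and 406 bp, and 16.4% and 6.56% were broad. Of clustered peaks of IV, 24.2% (19.6% to 29.5%) were in both replicates, against 18.7% (14.0% to 24.6%) of single peaks. The shares on the other autosomes were 24.4% and 16.5%. Strength varied within clusters. Of the 112 clusters, 52 held at least 1 peak found in both replicates and 30 held such a peak beside one found in neither, while 17 held peaks found in neither only and 6 held only peaks found in both.

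Of the 5 clusters of 5 peaks, 4 held a peak found in both replicates beside one found in neither. In the centre, 4468077 to 4477447 was the best supported, with 3 broad peaks and −log10 q from 3.69 to 19.5; replicate 1 overlapped 2 of its peaks and replicate 2 overlapped 4. Also in the centre, 4396930 to 4407367 ended in a peak 2365 bp wide with 18.2, the only one of its 5 that the replicates held, beside peaks from 3.75 to 5.33. In the left arm, 2307363 to 2317135 reached 10.7, and 1 of its 5 peaks was in both replicates and the others in neither. One of these others, at 2307363 to 2308037, had a −log10 q of 10.1.

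The remaining clusters of 5 were in the right arm. That at 13313168 to 13324580 reached 9.65, with 2 peaks in replicate 1 and 0 in replicate 2, and that at 13881584 to 13893518 reached 12.7, with 2 peaks in replicate 1 and 1 in replicate 2. The widest cluster of IV, at 6906181 to 6919618, spanned 13438 bp but held only 4 narrow peaks with −log10 q up to 4.56. Peaks covered 9.10% of it, against 47.0% of the cluster at 4468077 to 4477447. The widest cluster was thus not the strongest. The strongest clustered peak of IV, with 53.4, lay in the cluster at 2703953 to 2713661, which spanned 9709 bp.

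Some peaks of moderate strength were not found in either replicate. The strongest on IV were 2764984 to 2765616 and 16169547 to 16171026, both with a −log10 q of 10.9, followed by 2307363 to 2308037 with 10.1, 4212711 to 4213381 with 9.38 and 7309504 to 7310426 with 8.68. The first belonged to a left arm cluster of 4 peaks, 2764984 to 2774938, none of which was in either replicate. In the other direction, the combined list held nearly all replicate peaks of IV, with 221 of 228 for replicate 1 and 132 of 134 for replicate 2. The 7 and 2 peaks it lacked were weak, with −log10 q up to 4.86 and 4.95, against IV medians of 5.83 and 5.87. The sources used here do not state how the combined list came about, so its overlap with the replicates is no independent test of them.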

How the data were processed

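LIN-13::EGFP ChIP-seq peaks were taken from 3 deposited peak lists, for ChIP replicate 1, ChIP replicate 2 and both combined. PeakSeq was used by the authors on build WormBase WS180, per the file headers. The deposited value of each peak is a q-value (a p-value adjusted by the caller), converted here to −log10 q. The sources used here name no version, aligner, filter or way of combining, and depth is unknown. No values of the input samples were used. The length of a chromosome was its farthest peak end in any list, a lower bound. Peaks were placed in arms, centre and 1 Mb bins by their centres. Overlaps, clusters and intervals were computed with Python 3.11.15, numpy 2.4.6, pandas 2.3.3 and scipy 1.17.1, and the functions were tested on simulated data. The density ratio has an exact binomial interval. Beside the differences listed with their alternatives in the closing section, 46 further differences of shares were computed, chosen after the data were seen, and no interval was adjusted for their number. Regions named are the 10 strongest and 5 widest peaks, the 5 strongest in neither replicate, all clusters of 5, the widest cluster, the widest gaps and the extreme bins. Other regions were named after their values were seen. Members and measures were chosen with earlier results of these data known. Alternatives are given in the closing section.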

Additional observations from a re-analysis of the deposited data

How the results depend on the processing

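Of 42 alternatives over 7 results, 38 gave a value within the 95% interval of the value reported. The density ratio of IV over the other autosomes, 0.942, moved to 1.16 without chromosome III, 1.10 without I and III and 0.818 for peaks in both replicates without I, a setting chosen after the data were seen. It was 0.944 to 1.03 in single replicate lists. The difference in clustered share, −0.424 points, moved to 5.80 without III. The differences in arm share, broad share and share in both replicates stayed within their intervals in all 7, 5 and 8 alternatives. The right arm held less than 50% of the arm peaks of IV in all 5, from 37.3% in replicate 2 to 44.6% in the stronger 50% of peaks. The interval included 50% in the stronger 50% of peaks (36.1% to 53.5%) and in replicate 1 (33.1% to 50.3%). No paired analysis was possible because replicate numbers are shared only with input samples, for which no values were used. With depth unknown, a weak peak missing from 1 replicate cannot be read as unbound. Counts come from 2 ChIP samples of 1 strain, so no spread over replicates is given for them.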
